A study of Mus musculus with 3 samples.

Results

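Nuclei of large-fiber sensory neurons of the dorsal root ganglion (DRG) were picked out by Nxph1 and 4 further genes. A nucleus was a barcode with over 1000 detected genes and Malat1, a nuclear noncoding RNA, at 0.5% or more of its unique molecular identifiers (UMIs, tags that mark single captured transcripts). Members had 5 or more UMIs summed over Nxph1, Smpx, Ndst4, Slco6c1 and D7Ertd443e, from 2 or more of these genes. This sum also had to reach 2 times the UMIs over Kcnh5, Vwc2l, Lpar3, Tafa4, Adcyap1, Gfra3, Chrna7 and Trpm8, which mark other DRG neurons. The rule kept 493 of 17290 nuclei, of which 311 came from the adult library, 127 from aged replicate 1 and 55 from aged replicate 2. They were thus chosen by the measured UMI counts of these 13 genes, and are called Nxph1 nuclei. The nuclei that met the mirror rule, with the 8 genes of other neurons in place of the 5, are called other neuron nuclei and numbered 1205, 488 and 398 in the same order.

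Nuclei came from DRGs of lumbar levels L3, L4 and L5 of wild-type C57BL/6 mice and were captured with PIP-seq, in which barcoded particles take up single nuclei. The labels give 1 library of adult mice aged 3 months and 2 libraries of aged mice aged 21 months. The description of the series gives a different age for the aged mice, and the sample labels were followed. No treatment or transgene is named. The paper calls the 3 libraries biological replicates, and how many mice went into a library is not given. P-values of the gene tests measure only the spread between the 2 aged libraries, taken as a trend shared by all genes. This spread may be partly technical. Because there was a single adult library, age and any further property in which it differed from the aged pair cannot be told apart. All 3 libraries are labelled male. Xist, the noncoding RNA of the inactive X chromosome in females, was nonetheless at 899, 579 and 550 CPM (UMIs scaled to a constant total, as counts per 1e6) in the Nxph1 nuclei of the adult library and aged replicates 1 and 2, an order kept throughout the text. The Y-linked genes Ddx3y, Uty, Kdm5d and Eif2s3y summed to 14.6, 7.50 and 9.36 CPM. Both kinds of transcript were thus present in every library, which does not match the label. The methods of the study describe the aged mice as female. Libraries held 167664164, 95647106 and 69045987 UMIs. No barcode of a Nxph1 nucleus recurred among the Nxph1 nuclei of another library.

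The DRG holds the cell bodies of neurons that carry touch, limb position, temperature and pain from the body to the spinal cord. Proprioceptors, with large cell bodies and thick myelinated fibers, report muscle stretch and tension. They depend on the neurotrophin-3 receptor Ntrk3 and the transcription factors Runx3 and Etv1, and they express the calcium buffer parvalbumin (Pvalb). Other large-fiber neurons with Ntrk2 or Ret are low-threshold mechanoreceptors that serve touch. Nxph1 encodes neurexophilin 1, a secreted protein that binds alpha-neurexins at synapses. Ndst4 encodes an enzyme that modifies heparan sulfate chains, Smpx a small protein of striated muscle and Slco6c1 a member of the organic anion transporter family.

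The median UMI counts of the Nxph1 nuclei were 19262, 17036 and 21295, with medians of 5208, 4758 and 5804 detected genes. Together they held 7316621, 3733739 and 1922337 UMIs. Malat1 made up 4.999%, 1.79% and 1.71% of these UMIs. Mitochondrial transcripts made up 0.132%, 0.225% and 0.159%.

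The genes that chose the nuclei contributed unequally. These values describe the rule and were not tested. Ndst4 had a UMI in 98.7%, 95.3% and 96.4% of Nxph1 nuclei and supplied 74.4%, 60.3% and 53.0% of the UMIs of the 5 genes. Nxph1 itself had a UMI in 49.5%, 69.3% and 78.2% of the nuclei and supplied 12.9%, 24.2% and 31%. Ndst4 thus supplied most of the UMIs that admitted the nuclei. Nxph1 (chr6:8948431-9249032, plus strand) was at 360, 554 and 780 CPM against 4.06, 7.18 and 5.21 in other neuron nuclei. Ndst4 (chr3:125404076-125728899, plus strand) was at 2080, 1381 and 1335 CPM against 45.5, 54.8 and 35.1. Nxph1 was lowest and Ndst4 highest in the adult library. D7Ertd443e (chr7:134265779-134385661, minus strand) was at 216, 194 and 234 CPM, Smpx (chrX:157698910-157752591, plus strand) at 76.9, 95.9 and 115, and Slco6c1 (chr1:97059038-97128301, minus strand) at 61.8, 63.2 and 56.2. Positions are those of the GENCODE annotation M21 on GRCm38.

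**Figure D1:**
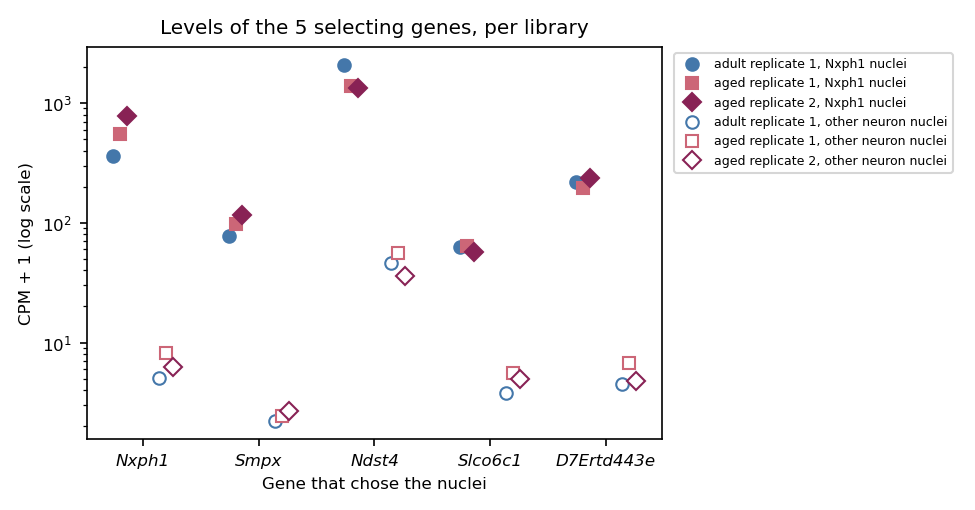
Level of each of the 5 genes that chose the nuclei (y axis, CPM + 1, log scale) in the adult library and the 2 aged libraries, with filled points for Nxph1 nuclei and open points for other neuron nuclei. The rule forces the gap between filled and open points. Nxph1 stands at 360, 554 and 780 CPM, while Ndst4 is highest in the adult library.

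Nuclei on both sides of the limits of the rule were compared once, with no test. The 37, 21 and 3 nuclei just inside, with a sum of 5 to 7, had the 6 proprioceptor markers Pvalb, Runx3, Etv1, Whrn, Spp1 and Esrrg at a summed 3142, 1139 and 1332 CPM. In the 205, 66 and 39 nuclei with a sum of 20 or more these markers summed to 2506, 1573 and 1663 CPM. The 41, 18 and 1 nuclei just outside, with a sum of 3 or 4, had 1895, 978 and 0 CPM. The 36, 20 and 9 nuclei that fell short on the ratio to the genes of other neurons had 963, 693 and 862 CPM. Scn10a, the sodium channel of small-fiber neurons, was at 63.5, 397 and 444 CPM just inside and at 70.4, 60.7 and 106 CPM in the nuclei with a sum of 20 or more.

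The label was checked against class markers, as a description with no test. All 6 proprioceptor markers were over 2-fold higher in Nxph1 nuclei than in other neuron nuclei in all 3 libraries, where 3.6% of 17901 genes were (644 genes). Pvalb was at 106, 75.5 and 89.0 CPM against 10.0, 5.58 and 4.26. Runx3 was at 25.4, 41.5 and 44.7 CPM against 1.14, 1.97 and 2.36. Esrrg, an orphan nuclear receptor, was at 1477, 796 and 815 CPM against 68.9, 75.5 and 63.0. These gaps were at least 10-fold in every library. Etv1 was at 615, 400 and 470 CPM, Whrn, which encodes the scaffold whirlin, at 156, 126 and 145, and Spp1, which encodes osteopontin, at 45.8, 82.2 and 59.8. Ntrk3 was at 1330, 863 and 861 CPM against 568, 509 and 441 in other neuron nuclei, and against 1490, 1190 and 688 in the nuclei with Kcnh5 and Vwc2l, another neuron class. Ntrk3 therefore did not set the Nxph1 nuclei apart from that class. It numbered 116, 59 and 30 nuclei, which had 5 or more UMIs over Kcnh5 and Vwc2l with both genes found. This sum also had to reach 2 times the UMIs over the other choosing genes.

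Markers of touch receptors and of small-fiber neurons behaved differently. Of the 8 markers of Ntrk2 or Ret low-threshold mechanoreceptors, only Shox2, a transcription factor, was over 2-fold higher in all 3 libraries, and Cacna1h, a T-type calcium channel, was over 2-fold lower. Ret was at 43.7, 97.5 and 93.6 CPM against 166, 181 and 161. Of 18 small-fiber markers 13 were over 2-fold lower and none was higher, where 4.45% of 17901 genes were lower (796 genes). Scn10a was at 91.4, 102 and 114 CPM against 1124, 960 and 1054, and Calca, which encodes the neuropeptide CGRP, at 88.2, 102 and 142 against 621, 415 and 355. The 18 small-fiber markers summed to 607, 708 and 871 CPM in Nxph1 nuclei. In the nuclei with Kcnh5 and Vwc2l they summed to 641, 848 and 792 CPM, so as a sum they did not set these classes apart. The markers thus matched a large-fiber label and, among large-fiber types, the proprioceptor list.

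**Figure D2:**
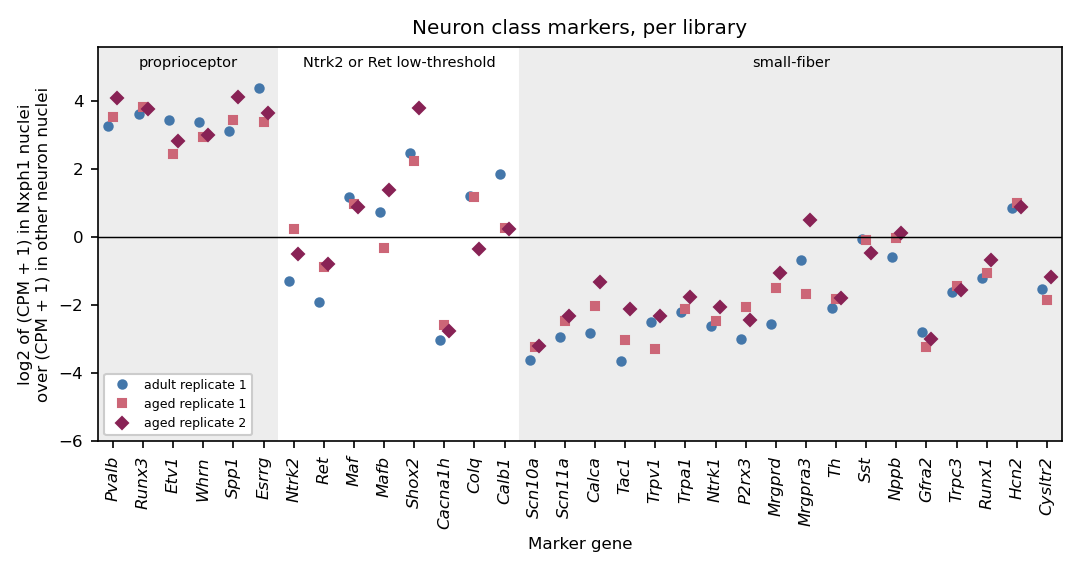
Log2 of the ratio of CPM + 1 in Nxph1 nuclei over CPM + 1 in other neuron nuclei (y axis) for markers of proprioceptors, of Ntrk2 or Ret low-threshold mechanoreceptors and of small-fiber neurons (x axis), with 1 point per library. All 6 proprioceptor markers lie above 0 in all 3 libraries, and 13 of the 18 small-fiber markers are over 2-fold lower in every library.

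Proprioceptor transcripts were spread over nearly all members. Nuclei with 2 or more UMIs of the 6 proprioceptor markers were 97.1% (95% exact binomial interval 94.6 to 98.7), 92.9% (87.0 to 96.7) and 96.4% (87.5 to 99.6) of Nxph1 nuclei. When each nucleus was thinned to 2000 UMIs, the shares were 75.1%, 69.4% and 67.3%, against 5.98%, 8.28% and 6.03% of other neuron nuclei and 24.3%, 20.3% and 20% of the nuclei with Kcnh5 and Vwc2l. Without thinning 56.0%, 67.8% and 61.8% of the deeper other neuron nuclei had as many. The same count for the 8 low-threshold mechanoreceptor markers gave 74.6%, 76.4% and 81.8% of Nxph1 nuclei on all UMIs, and 11%, 20.2% and 21.8% after thinning. In other neuron nuclei the thinned shares were 20.8%, 21.3% and 18.8%. In the adult library the share was thus lower in Nxph1 nuclei (95% exact binomial interval 7.74 to 15.04) than in other neuron nuclei (18.5 to 23.2), and in the aged libraries the shares were close. Intervals cover counting error only.

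The genes that led the comparison with other neuron nuclei came from several functional groups. The rule that chose the nuclei used the same contrast, so the levels are given without a test. Ano1, a calcium-activated chloride channel, was at 378, 230 and 312 CPM against 5.72, 5.12 and 3.11. Slit2, a secreted axon guidance protein, was at 1199, 920 and 1073 CPM against 25.6, 38.7 and 37.8. Lrrc7, a postsynaptic scaffold protein, was at 287, 247 and 350 CPM against 15.4, 7.04 and 5.72. In each case the lowest Nxph1 library stood at least 10-fold above the highest of the others. Cdh12, a cadherin, was at 1483, 988 and 1067 CPM against 105, 65.7 and 72.1, and Plekhg1, a guanine nucleotide exchange factor, at 585, 537 and 544 against 44.1, 44.7 and 43.4. The other leading genes by the smallest ratio over the libraries were Sspo, Vstm2b, Sfmbt2, Sntg2, St8sia5, Fhod3, Runx3, Lancl3, Hs3st2 and Wdr72. At the opposite end stood Ldb2, a cofactor of LIM-domain transcription factors, at 69.7, 51.4 and 73.3 CPM against 779, 741 and 832. Pde11a, Gpr149, Bves, Kcnc2, Htr4, Zmat4, Cacna1c, Syt16 and Scn10a completed the 10 lowest. Of these, Cacna1c, an L-type calcium channel, was at 121, 152 and 181 CPM against 1602, 1471 and 1695.

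The promoter of Runx3 was read because Runx3 both belonged to the proprioceptor list and was among the 15 leading genes. The sequence runs from 250 bases before to 50 bases after the distal start of the gene on GRCm38.p6 (RefSeq), chr4:135120395-135120694, plus strand. Capitals mark 2 matches to the RUNX motif TGTGGTT, found here on the opposite strand, at 135 and 127 bases before the start. A further Runx3 promoter, chr4:135152295-135152594, plus strand, held no match. Which start these nuclei use was not tested.
Runx3: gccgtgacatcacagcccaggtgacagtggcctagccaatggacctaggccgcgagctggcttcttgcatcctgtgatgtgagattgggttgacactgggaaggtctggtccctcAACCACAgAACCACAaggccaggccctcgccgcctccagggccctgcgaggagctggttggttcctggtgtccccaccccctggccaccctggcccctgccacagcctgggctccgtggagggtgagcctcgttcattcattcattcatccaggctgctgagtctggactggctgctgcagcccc
The same motif, searched on both strands, was in the promoters of 2 of the 16 genes with an entry among the 20 formed by the 5 choosing genes and the 15 leading genes, Runx3 and Sfmbt2. A gene counted if any of its promoters matched, and a further Sfmbt2 promoter held no match. That is 12.5%, where 6.09% of 27025 gene promoters of this length held it. The motif TCAAGGTCA, which the receptor family of Esrrg is known to bind, was in none of the 16 and in 0.466% of all promoters. A match is a run of letters and was not tested as a binding site.

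Genes of synapses and excitability also differed in level, again as a description. Among the neurexins and their ligands, 5 of 23 measured genes were over 2-fold higher in all 3 libraries and none was lower, where 3.6% of all genes were higher and 4.45% lower. Lrrtm4, a postsynaptic neurexin ligand, was at 912, 501 and 556 CPM against 80.7, 50.05 and 46.9. Nlgn1, Cbln2, Clstn3 and Adgrl2 were the others. The whole list summed to 7689, 7129 and 6973 CPM in Nxph1 nuclei and to 9277, 7276 and 8287 CPM in the nuclei with Kcnh5 and Vwc2l. As a sum it was thus not higher in Nxph1 nuclei than in that class. Among 29 measured genes of heparan sulfate synthesis, Hs3st2, a 3-O-sulfotransferase, at 570, 452 and 569 CPM against 29.4, 38.7 and 31.7, and the sulfatase Sulf2 were higher. Hs3st3b1, Hs6st2, Hs6st3, Sulf1 and Gpc5 were lower. Ndst4 was left out of this list because it chose the nuclei.

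Of 41 voltage-gated sodium, potassium and HCN channel genes, 5 were over 2-fold higher and 13 over 2-fold lower in Nxph1 nuclei in all 3 libraries, where 3.6% of all genes were higher and 4.45% lower. Kcnc1, a fast delayed rectifier, was at 199, 126 and 159 CPM and Scn1a, a sodium channel of fast-firing neurons, at 726, 597 and 609 CPM. They stood between 3.78-fold and 5.77-fold above other neuron nuclei. The 41 channel genes summed to 17828, 14327 and 15140 CPM in Nxph1 nuclei. In the nuclei with Kcnh5 and Vwc2l they summed to 18233, 17192 and 15911 CPM, so as a sum they were not higher in Nxph1 nuclei than there. Scn8a and Kcnd2 were among the other higher genes, and Scn9a, Scn10a, Scn11a and Kcnd3 were among the lower ones. Of 38 genes of glutamate release and reception, 7 were higher and 9 lower than in other neuron nuclei, against the same shares of all genes. They summed to 12212, 11126 and 11290 CPM in Nxph1 nuclei and to 11382, 10241 and 10438 CPM in the nuclei with Kcnh5 and Vwc2l. Slc17a7, a vesicular glutamate transporter, was at 85.0, 104 and 107 CPM, at least 5.29-fold above other neuron nuclei, whereas Slc17a6, the related transporter, was at 29.9, 49.3 and 45.8 CPM against 110, 136 and 128. Of the AMPA receptor subunits, Gria2 and Gria3 were higher and Gria1, at 19.5, 14.2 and 13.5 CPM against 179, 210 and 207, was lower.

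The Nxph1 nuclei were not uniform in Nxph1 itself, and a split by that gene, chosen after the data were seen, described this. Nuclei with 2 or more Nxph1 UMIs numbered 119, 71 and 36, or 38.3%, 55.9% and 65.5% of members. Nuclei with none numbered 157, 39 and 12, and these passed on the other 4 genes. Of 7512 genes compared, 7 were over 2-fold higher with Nxph1 in all 3 libraries (0.0932%) and 23 were over 2-fold lower (0.306%). Slc38a11, an amino acid transporter family member, was at 82.3, 79.6 and 64.5 CPM with Nxph1 and at 16.4, 20.2 and 13.2 CPM without. The others higher were Unc5d, Rasef, Tmem132d, Shroom4, Gabra3 and Pmfbp1. Asic3, an acid-sensing channel, was at 28.8, 10.2 and 52.6 CPM with Nxph1 and at 108, 224 and 226 CPM without. Csmd3, a large transmembrane protein, was at 273, 198 and 179 CPM with Nxph1 and at 1285, 1354 and 2525 CPM without. Proprioceptor markers were present on both sides of the split. Esrrg was at 1535, 876 and 820 CPM with Nxph1 and 1474, 763 and 889 CPM without, and Runx3 at 25.9, 40.0 and 42.2 CPM with Nxph1 and 24.4, 42.8 and 37.3 CPM without.

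The share of Nxph1 nuclei could not be tested for age at any usual threshold with 3 libraries, and the values are a description. Among gated neuron nuclei (Nxph1 plus other neuron nuclei) the share was 20.5% (95% exact binomial interval 18.5 to 22.6) for adult mice, and 20.7% (17.5 to 24.1) and 12.1% (9.28 to 15.5) for aged mice. The aged mean was 16.4% ± 6.02 (SD, n = 2), and the 2 aged libraries stood further apart than their mean stood from the adult value. Permuting the age labels exactly over the 3 libraries gave p = 1 (two-sided exact permutation test), and the smallest p that 3 libraries allow is 0.333, so this p supports neither a difference nor its absence. Among all nuclei kept the share was 2.84% in the adult library and 2.78% ± 0.407 (SD, n = 2) in the aged libraries (exact permutation p = 1). Among the alternatives run, the gap was widest relative to the SD of the aged libraries under 2. With a minimum of over 2000 genes the share among kept nuclei was 6.55% in the adult library and 3.88% ± 0.491 (SD, n = 2) in the aged ones. With each nucleus thinned to 2000 UMIs before the rule was applied, the share among gated neuron nuclei was 66.1% and 59.8% ± 1.59 (SD, n = 2). The adult share was the higher one in both.

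To examine age within the Nxph1 nuclei, UMIs were summed over the nuclei of each library and compared with edgeR's quasi-likelihood test. Of 14996 genes tested, 1519 (10.1%) passed an adjusted p under 0.05, 483 higher (3.22%) and 1036 lower (6.91%) in the aged libraries. These counts depended strongly on how nuclei were chosen and tested. A rule of 8 UMIs from 3 genes left 227 calls, and DESeq2 made 227 on the same sums. Subtraction of free RNA, estimated from barcodes of 100 or fewer UMIs, left 12. The split into higher and lower calls moved as well, from 31.8% higher to 10.6% under the stricter rule and 9.25% with DESeq2. The median log2 fold change of all genes tested was 0.01, and without scaling for composition it was 0.29, so changes are given relative to the scaled sums. All changes named in the lists that follow had the same sign in plain CPM in both aged libraries, except where said.

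Many genes induced by axon injury rose in the aged libraries. Atf3, a transcription factor that sensory neurons switch on after nerve injury, was at 4.51, 80.1 and 40.6 CPM. Both aged libraries lay far above the adult one. The log2 fold change was 3.49 ± 0.28 (SE; edgeR quasi-likelihood, adjusted p = 7.6e-32). Of 18 tested genes of the axon injury and regeneration list 10 rose and none fell, where 3.22% of all genes rose and 6.91% fell. The median log2 fold change of the list was 1.17. The list, like the others, was chosen with earlier results of these data known. Sprr1a, a growth-associated protein of injured axons, had 0, 51 and 5 UMIs, at least 24.1-fold higher against a floor of 3 UMIs over the group. With aged replicate 2 alone the bound was 6.34-fold, and with aged replicate 1 alone 33.3-fold. Of the 51 UMIs 33 were in a single nucleus. With no adult UMI, Sprr1a entered the test through the aged libraries alone. Jun, a partner of Atf3 in AP-1 complexes, was at 31.4, 81.2 and 72.8 CPM (log2 fold change 1.00 ± 0.20, adjusted p = 4.7e-05). Sox11, a transcription factor of growing axons, was at 31.4, 91.3 and 55.1 CPM, and Cacna2d1, a calcium channel subunit, at 241, 731 and 537 CPM. Sema6a, Gadd45a, Flrt3, Klf6 and Stmn4 also rose. Gap43, a growth cone protein, did not pass, at 25.6, 48.7 and 34.9 CPM, and neither did Nts, Csf1, Tubb6, Smad1, Ecel1, Stat3 or Klf7.

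The injury list was sensitive to the choices made. It had 2 calls under the rule of 8 UMIs, 3 with DESeq2, 1 after thinning to 2000 UMIs, where 9 genes could be tested, and 0 after free RNA was subtracted, with medians of 1.07, 1.12, 0.65 and 1.21. Atf3 itself kept its call under the stricter rule and with DESeq2 but lost it after thinning and after subtraction, at log2 fold changes of 4.42 and 3.66.

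**Figure D3:**
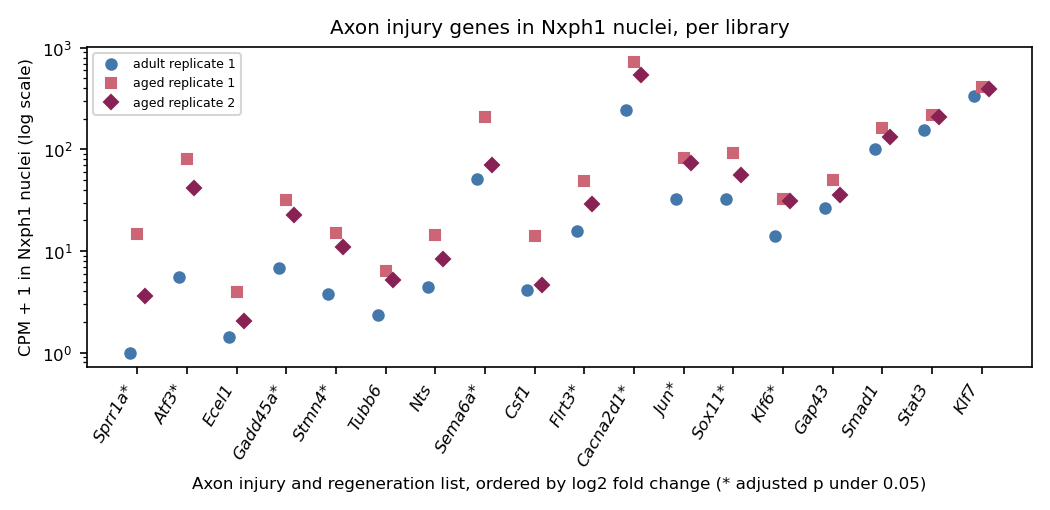
Level of the 18 tested genes of the axon injury and regeneration list in Nxph1 nuclei (y axis, CPM + 1, log scale), ordered by log2 fold change, with 1 point per library and an asterisk at the 10 genes with an adjusted p under 0.05. Atf3 stands at 4.51, 80.1 and 40.6 CPM.

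Atf3 was found in a minority of nuclei. Nuclei with 2 or more Atf3 UMIs were 6 of 311 in the adult library (1.93%, 95% exact binomial interval 0.711 to 4.15), 19 of 127 in aged replicate 1 (14.96%, 9.25 to 22.4) and 9 of 55 in aged replicate 2 (16.4%, 7.77 to 28.8). In other neuron nuclei the shares were 1.08%, 4.30% and 3.77%. Nuclei with Atf3 were deeper than the rest, with median UMI counts of 32023, 52368 and 57696 against 18457, 14114 and 17560. After each nucleus was thinned to 2000 UMIs, which left out 2 adult nuclei and 3 of aged replicate 1, an Atf3 UMI was found in 0.647%, 12.1% and 7.27% of Nxph1 nuclei and in 0.249%, 1.04% and 0.503% of other neuron nuclei. The 95% exact binomial intervals of the thinned Nxph1 shares were 0.0785 to 2.32, 6.93 to 19.2 and 2.02 to 17.6. These intervals cover counting error only and not the spread between libraries, so they do not compare the ages. In free RNA Atf3 was at 3.61, 19.1 and 14.3 CPM, so it was higher in the aged libraries there too, and the part of free RNA in these shares was not tested.

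As a sum, the other genes of the injury list were higher in the same nuclei. They summed to 2618, 4172 and 2604 CPM in nuclei with 2 or more Atf3 UMIs and to 962, 1353 and 1285 CPM in the others. Cacna2d1 was at 1154, 1791 and 1049 CPM with Atf3 and at 210, 328 and 369 without. Flrt3, a membrane protein of growing axons, was at 86.6, 145 and 61.2 CPM with Atf3 and at 12.3, 10.7 and 17.3 without. Cacna2d1 made up a large part of the gap between the sums, and not every gene followed it. Gal, which encodes the neuropeptide galanin, had no UMI in nuclei with Atf3 and was at 1.98, 2.96 and 2.76 CPM without, and Csf1 in aged replicate 2 was at 0 CPM with Atf3 and 4.83 without. The nuclei with 2 or more Atf3 UMIs held 10, 223 and 40 Sox11 UMIs and the others 220, 118 and 66. Most Sox11 UMIs thus lay inside these nuclei in aged replicate 1 and outside them in the other libraries. As CPM, Sox11 was higher with Atf3 in every library, at 41.2, 217 and 84.4 against 31.1, 43.6 and 45.6. For Jun the counts were 17, 111 and 61 UMIs inside and 213, 192 and 79 outside. As CPM, Jun was also higher with Atf3, at 70.1, 108 and 129 against 30.1, 71.0 and 54.5. When the nuclei with 2 or more Atf3 UMIs were left out, an alternative chosen after the data were seen, 1 of 14 injury genes tested passed and their median log2 fold change was 0.36. That choice removes Atf3 UMIs by construction, and Atf3 then had a log2 fold change of 1.34 and did not pass.

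**Figure D4:**
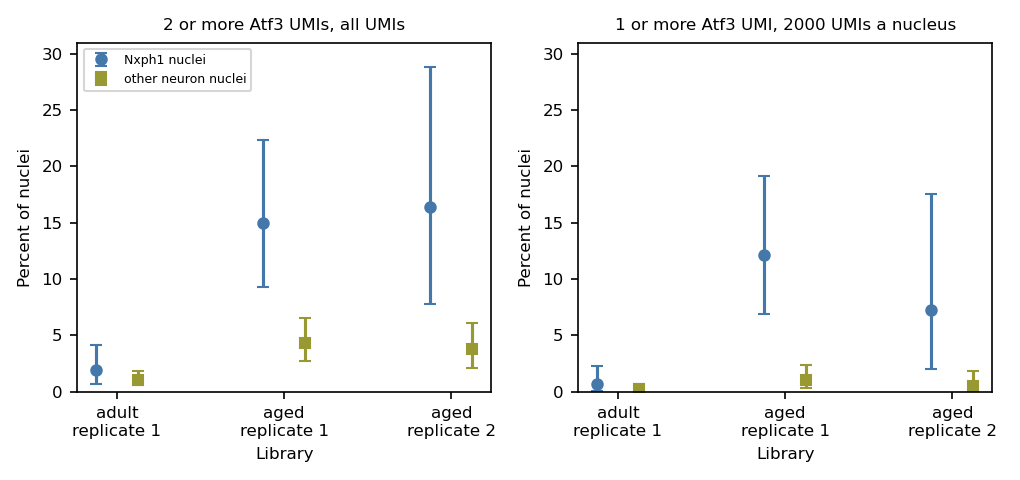
Percent of nuclei with Atf3 (y axis) in each library for Nxph1 nuclei and other neuron nuclei, with 95% exact binomial intervals as bars, on all UMIs (left, 2 or more Atf3 UMIs) and after thinning to 2000 UMIs a nucleus (right, 1 or more). On all UMIs the Nxph1 nuclei stand at 1.93% (adult), 14.96% and 16.4% (aged).

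The promoter of Sprr1a was the 1 promoter with the AP-1 motif TGACTCA among the 8 injury genes that rose and had an entry, of 10 that rose (12.5%). Over all 27025 gene promoters the share was 5.95%. Both strands were searched. The sequence spans chr3:92485832-92486131 on GRCm38.p6 (RefSeq), minus strand, from 250 bases before to 50 bases after the start. Capitals mark the 2 matches, on the opposite strand of the gene, at 146 and 116 bases before the start.
Sprr1a: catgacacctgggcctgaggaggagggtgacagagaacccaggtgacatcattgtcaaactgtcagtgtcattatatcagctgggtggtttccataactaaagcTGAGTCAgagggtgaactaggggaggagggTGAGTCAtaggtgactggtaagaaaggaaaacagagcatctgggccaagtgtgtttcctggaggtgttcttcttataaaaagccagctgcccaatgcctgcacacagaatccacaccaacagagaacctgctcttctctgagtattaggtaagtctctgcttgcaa
The related motif TGACGTCA was in none of the 8 and in 2.03% of all promoters.

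Some genes induced by interferon also rose in the aged libraries. Of 27 tested genes of the interferon-inducible list 11 rose and none fell, where 3.22% of all genes rose and 6.91% fell. The median log2 fold change was 1.24. B2m, the invariant chain of MHC class I, was at 17.6, 41.2 and 44.7 CPM (log2 fold change 0.98 ± 0.24, adjusted p = 0.0011). Gbp7, a guanylate-binding GTPase, was at 2.19, 8.30 and 18.2 CPM. Among the other calls were Irgm2, Ifit3, H2-K1, Tap2, Ifit2, Gbp2, Gbp3 and Gbp4, the last with 0 adult UMIs and at least 6.90-fold higher. Gbp7, Ifit3, Ifit2, Gbp2 and Gbp3 had 16, 9, 15, 12 and 6 adult UMIs. Genes this low in the adult library pass the low-count filter mainly through their aged counts, which favors rises in the count of calls. No gene of the list passed under the rule of 8 UMIs, with a gate ratio of 4, with DESeq2, after thinning or after free RNA was subtracted. Medians were 1.015, 1.12, 1.27, -0.07 over 5 genes and 1.24. When the highest nucleus of each gene was left out, a choice made after the data were seen, 3 passed.

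These transcripts were also at higher CPM in free RNA than in the nuclei. The interferon list summed to 227, 421 and 552 CPM in Nxph1 nuclei and to 850, 1324 and 1287 CPM in barcodes of 100 or fewer UMIs. The 7 satellite glial cell markers summed to 272, 510 and 484 CPM in Nxph1 nuclei and to 1724, 1841 and 1490 CPM in free RNA, and none was at 0. Apoe, Glul and Kcnj10 of these rose, Apoe from 141 CPM to 272 and 275 CPM, while Fabp7, the defining marker, was at 26.4, 27.6 and 20.8 CPM. The 7 myelinating Schwann cell markers summed to 199, 187 and 196 CPM against 2571, 1676 and 1048 CPM in free RNA. Of 5 non-myelinating Schwann cell markers, which summed to 7385, 5641 and 5001 CPM, Csmd1 and Cadm2 fell and Cdh19 rose. Fibroblast, endothelial, mural, macrophage and lymphocyte markers summed to at most 59.3, 54.9, 42.1, 14.0 and 1.64 CPM in any library, and of them Col1a1, Dcn and Pecam1 fell. The 10 pan-neuronal markers summed to 6603, 5838 and 6207 CPM, and Elavl4, Snap25 and Syt1 of these fell. The part of free RNA and of glial transcripts in the increases was not tested. The subtraction of free RNA took off 10.96%, 19.8% and 26.8% of the UMIs of Nxph1 nuclei. These amounts were set by the satellite glial and myelinating Schwann cell markers, whose UMIs in the nuclei were all taken to be free RNA. Glial transcripts that came with a nucleus in another way would thus count as free RNA. When nuclei with over 1% of their UMIs in markers of other cell types were left out, 9 of 17 injury genes and 4 of 26 interferon genes passed. This limit rested largely on the 5 non-myelinating Schwann cell markers. In free RNA those summed to 4739, 3903 and 3638 CPM, below their level in the nuclei. The limit therefore cannot tell glial transcripts from those of the neurons themselves.

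Many genes that characterize large-fiber neurons fell in the aged libraries. Of 26 tested genes of the large-fiber and low-threshold list 14 fell and 1 rose, where 6.91% of all genes fell and 3.22% rose, so that the single rise is near the share of all genes. The median log2 fold change was -0.54. Esrrg was at 1477, 796 and 815 CPM (log2 fold change -1.18 ± 0.15, edgeR quasi-likelihood, adjusted p = 5.4e-13). Ntrk3 was at 1330, 863 and 861 CPM (-0.93 ± 0.15, adjusted p = 5.4e-08). Etv1 was at 615, 400 and 470 CPM (-0.80 ± 0.15). In each case the adult library lay above both aged ones. Pvalb fell by 0.68 and Whrn by 0.52 on the log2 scale, and Cntnap2, Kcnc1, Piezo2, Maf, Scn1a, Calb1, Esrrb and Scn8a were among the others that fell. Ret, the receptor subunit for GDNF ligands, was the gene that rose, at 43.7, 97.5 and 93.6 CPM. Runx3 and Spp1 of the proprioceptor markers did not pass. The list had 6 lower calls under the rule of 8 UMIs, 5 with DESeq2, 3 after thinning and 0 after free RNA was subtracted, with medians of -0.54, -0.54, -0.24 and -0.62. With the nuclei of 2 or more Atf3 UMIs left out it had 11.

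**Figure D5:**
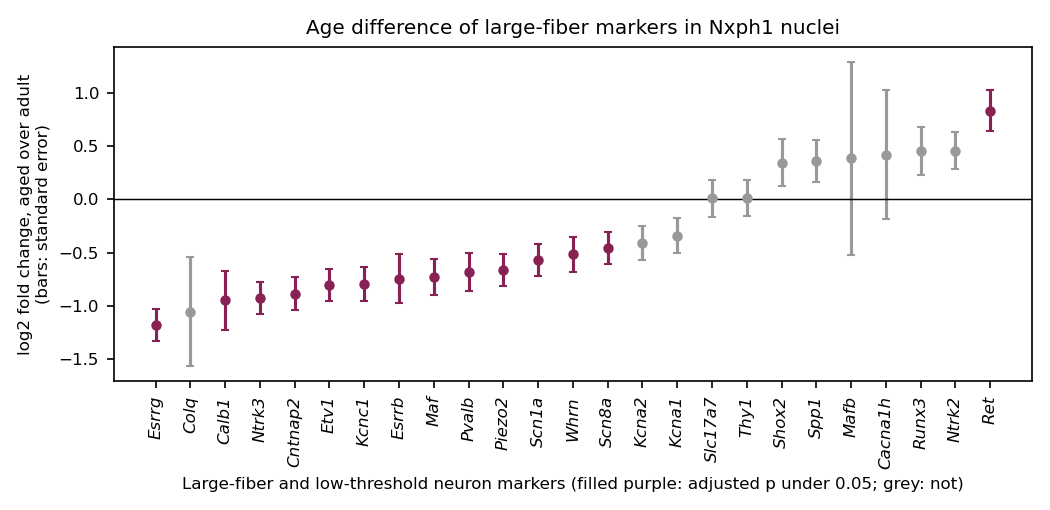
Log2 fold change, aged over adult, in Nxph1 nuclei (y axis, bars for the standard error) of genes of the large-fiber and low-threshold list, all but 1 of the 26, in purple where the adjusted p was under 0.05 and in grey otherwise. Esrrg lies at -1.18 and Ret is the 1 purple point above 0.

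Other neuronal groups had calls in both directions, and most of their genes did not pass. Of 24 neurofilament and cytoskeleton genes 6 fell and 2 rose, with a median of -0.13, where 6.91% of all genes fell and 3.22% rose. The neurofilament genes fell together, Nefm from 1332 CPM to 937 and 794, Nefl from 1316 to 1038 and 874 and Nefh from 1196 to 1020 and 860. Tubb2a, a tubulin gene, rose from 70.1 CPM to 126 and 141. None of the 24 passed under the rule of 8 UMIs, and after thinning none of 23 did, with the median at 0.04. Of 41 channel genes 10 fell and 1 rose (median -0.28), against the same shares. Kcnip1, a subunit of A-type potassium channels, was at 2146, 956 and 1129 CPM and fell by 1.34 on the log2 scale. Kcnd2 was called lower although aged replicate 2 was above the adult library, at 249, 158 and 300 CPM, and Kcnd3 was at 82.0, 82.2 and 43.7 CPM.

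Of 38 genes of glutamate release and reception 9 fell and 4 rose, with a median of -0.31, where 6.91% of all genes fell and 3.22% rose. Gria2, an AMPA receptor subunit, was at 623, 307 and 316 CPM (log2 fold change -1.30 ± 0.15) and Grm5, a metabotropic receptor, at 41.5, 12.3 and 15.1 CPM (-1.93 ± 0.25). Syt4 and Syt9, vesicle proteins, rose, Syt4 from 75.7 CPM to 185 and 183. Of 20 tested neurexins and ligands 5 fell and 1 rose (median -0.07), against the same shares. Lrrtm4 fell by 1.09 on the log2 scale, from 912 CPM to 501 and 556. Among 28 tested heparan sulfate genes 6 rose and 3 fell (median -0.07), and the 3 that fell are near the share of all genes. The core proteins Sdc3, Sdc4, Sdc1 and Gpc1 were among those that rose, Sdc3 from 15.3 CPM to 42.3 and 38.0, and Gpc6 fell from 233 CPM to 212 and 151. Gpc6 was among the genes lower with Nxph1, at 123, 53.8 and 75.7 CPM in nuclei with 2 or more Nxph1 UMIs and at 340, 501 and 371 CPM in nuclei with none. The part of the split in its fall was not tested. Hs3st4 and Hs3st2 were called lower, although Hs3st4 was at 38.5, 17.7 and 44.7 CPM and Hs3st2 in aged replicate 2 was within 1 CPM of the adult level.

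The remaining groups were of several kinds. None of 13 tested immediate early and heat shock genes passed (median -0.04), which are genes that dissociation of tissue can induce. The list holds 21 genes. Fos, Egr1, Egr3, Arc, Npas4 and Nr4a3 were among those with too few UMIs to be tested for age, so the count does not cover them. Atf3 and Jun, which rose, were counted in the injury list and not in this one. Of 16 tested small-fiber markers P2rx3 rose and Gfra2 fell (median 0.20), which is near the 3.22% of all genes that rose and the 6.91% that fell. Of 13 mitochondrially encoded genes 4 rose, mt-Atp8, mt-Nd5, mt-Co1 and mt-Co2 (median 0.27), a larger share than that of all genes. The 13 summed to 1318, 2247 and 1594 CPM in Nxph1 nuclei and to 7966, 7856 and 6620 CPM in free RNA. The part of free RNA in these increases was not tested. All 9 abundant noncoding RNAs other than Malat1 fell, with a median of -0.70. Bc1, a small cytoplasmic RNA of neurons, was at 550, 9.11 and 3.12 CPM in Nxph1 nuclei and at 721, 14.7 and 7.72 CPM in other neuron nuclei. Meg3, an imprinted noncoding RNA, was at 15454, 6935 and 6896 CPM.

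The genes with the largest decreases were of 3 kinds. Bc1, Dsp, which encodes desmoplakin, Map3k7cl and Gt(ROSA)26Sor fell in Nxph1 nuclei and in other neuron nuclei alike, with log2 fold changes in other neuron nuclei of -6.16, -5.26, -4.59 and -5.17. Dsp had 109, 0 and 1 UMIs in Nxph1 nuclei (adult to aged ratio 84.3, 95% counting interval 14.8 to 3358). Gt(ROSA)26Sor, an antisense gene whose reads could not be told apart from those of the opposite strand unless the counting used strand, was at 22.6, 1.07 and 0 CPM in Nxph1 nuclei. The X-linked paralogs Ssxb9, Ssxb10 and Ssxb3, which are near-identical and whose reads could be split between copies, and Npy6r had 56, 55, 36 and 47 adult UMIs. For each of these 4 genes all the UMIs were in 1 nucleus, with 0 in the aged libraries. Dnaaf1 and Hsd17b3, a steroid dehydrogenase, had 41 and 75 adult UMIs, of which 28 and 25 were in 1 nucleus.

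The largest increases rested on few UMIs apart from Atf3. Sprr1a, Procr, Ifi47, Sdc1, Igkc, F13a1, Rsad2, Gbp3 and Ifit3 had 34 to 74 UMIs over the 3 libraries. Procr, the endothelial protein C receptor, had 1, 29 and 10 UMIs (ratio 50.4, 95% counting interval 8.54 to 2043). Ifi47, an interferon-inducible GTPase, had 1, 15 and 19 UMIs (ratio 44.0, interval 7.38 to 1788). Sdc1, a heparan sulfate carrier, had 3, 24 and 7 UMIs (ratio 13.4, interval 4.17 to 68.3), and 19 of the 24 were in 1 nucleus. Rsad2, an antiviral enzyme, was at 0.957, 1.61 and 15.1 CPM, with 20 of its 29 UMIs in aged replicate 2 in 1 nucleus. Without aged replicate 2 its log2 fold change was 0.44 in place of 2.63. For each call outside the choosing genes, the library in which the gene had its highest CPM was examined. In that library, 17 of 481 higher and 30 of 1031 lower genes had 50% or more of their UMIs in 1 nucleus.

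To ask whether the age difference in Nxph1 nuclei differed from that in other neurons, the interaction of age with class was tested. Each library was a block, so that shifts common to all neurons of a library cancel. The subtraction of free RNA took off 10.96%, 19.8% and 26.8% of UMIs in Nxph1 nuclei. In other neuron nuclei it took off 12.3%, 16.1% and 14.5%. A shift in free RNA, or in the glial markers that set these amounts, therefore need not cancel. Of 19866 genes 238 (1.2%) passed, 127 higher (0.639%) and 111 lower (0.559%) in Nxph1 nuclei relative to other neuron nuclei. With the nuclei of Kcnh5 and Vwc2l as the comparator none passed (503 at an unadjusted p under 0.05), and with a bias-adjusted form of the edgeR test none passed (1768 unadjusted), while DESeq2 made 30 calls. The Kcnh5 and Vwc2l nuclei numbered 116, 59 and 30, against 1205, 488 and 398 other neuron nuclei. That comparator thus rested on fewer nuclei, and a lack of calls with it does not show that the classes are alike.

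A minority of the injury genes differed between the classes. Of 21 tested 7 passed, all higher in Nxph1 nuclei, where 0.639% of all genes were higher and 0.559% lower. The median interaction was 1.03, against -0.05 for all genes. None passed with the bias-adjusted test, and none of 17 with the Kcnh5 and Vwc2l nuclei as the comparator, with medians of 1.03 and 1.60. Atf3 in other neuron nuclei was at 2.29, 6.58 and 4.96 CPM, so that it was higher in aged libraries there too, and its interaction was 2.25 ± 0.42 (log2, edgeR quasi-likelihood, adjusted p = 0.00011). Cacna2d1, Sema6a, Stmn4, Gadd45a, Jun and Sox11 were the other 6. The Atf3 interaction did not pass after thinning (3.89), after free RNA was subtracted (3.02), or once the nuclei of 2 or more Atf3 UMIs were left out (0.97), and it kept its sign in all 18 alternatives. Of 31 interferon genes only Ifit1 passed, at 4.51, 7.50 and 19.8 CPM in Nxph1 nuclei and 18.6, 11.8 and 17.4 CPM in other neuron nuclei. In aged replicate 2, 30 of its 38 UMIs were in 1 nucleus, and its own age difference in Nxph1 nuclei did not pass (adjusted p = 0.086). The increase of the other interferon genes was not shown to differ from that in other neurons.

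Among large-fiber genes 3 passed as lower in Nxph1 nuclei and 2 as higher of 26, where 0.559% of all genes were lower and 0.639% higher. The same shares stand behind the counts of the lists that follow. Esrrg had an interaction of -1.02 and Etv1 of -0.97 on the log2 scale, and Calb1, a calcium buffer, of -1.89. Ntrk2 and Ret had 1.04 and 0.95. Among glutamate genes Gria2, Grm5 and Grm3 were lower and Syt4 higher, of 38, and among channel genes Kcnip1 was lower and Kcnc4 higher, of 41. Among cytoskeleton genes Tubb2a, Stmn4, Prph and Stmn1 were higher, of 24. Hsp90aa1 and Hsp90ab1, of 20 immediate early and heat shock genes, were also higher.

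A channel subunit and a matrix protein had lower interactions carried by many nuclei. Kcnmb2, an auxiliary subunit of calcium-activated BK potassium channels, was at 111, 16.9 and 23.4 CPM in Nxph1 nuclei and at 192, 222 and 240 CPM in other neuron nuclei. It had a UMI in 121 of 311, 17 of 127 and 10 of 55 Nxph1 nuclei. In free RNA it was at 60.9, 50.3 and 55.4 CPM, above the level in the aged Nxph1 nuclei, and the part of free RNA in these shares was not tested. Both aged libraries lay far below the adult one in Nxph1 nuclei, with an interaction of -2.90 ± 0.26 (adjusted p = 3.6e-24). After thinning to 2000 UMIs it was found in 14.9%, 2.42% and 5.45% of Nxph1 nuclei. In Nxph1 nuclei without Atf3 (under 2 UMIs) it was at 114, 17.4 and 29.7 CPM. Ccbe1, a secreted protein of the extracellular matrix, was at 55.1, 25.4 and 38.5 CPM in Nxph1 nuclei and rose from 3.03 to 12.4 and 13.2 CPM in other neuron nuclei (interaction -3.04 ± 0.33, adjusted p = 3.2e-16). It had a UMI in 32.5%, 22.0% and 30.9% of Nxph1 nuclei. Neither Kcnmb2 nor Ccbe1 passed with the Kcnh5 and Vwc2l nuclei as the comparator, at -2.59 and -2.54, or with the bias-adjusted test.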

How the data were processed

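Nuclei of 3 DRG libraries were captured with PIP-seq. The authors aligned the reads and counted transcripts with Pipseeker, and deposited unnormalized UMI counts for 32227 genes in every barcode. The submitters' processing notes name the build mm10. The annotation and the use of strand are not given in the sources used here. Positions were taken from GENCODE M21 on GRCm38, where 32149 gene identifiers (99.8%) were found. Promoter sequences were those of RefSeq.

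Groups came from the sample titles. The members and the gene lists were chosen with earlier results of these data known. Only 1 and 1 kept barcodes were shared between the adult library and each aged one, and none was a member. No doublet caller was run, and the ratio to the genes of other neurons limits mixtures of neuron types only. Levels between classes are CPM of summed nuclei, with 1 CPM added before ratios and 50 or more UMIs over the 3 sums.

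For age, UMI counts were summed over the Nxph1 nuclei of each library and tested with edgeR 4.0.16 (R 4.3.3) by quasi-likelihood with TMM scaling, filterByExpr and Benjamini-Hochberg adjustment over all genes tested, called at 0.05. Only the aged pair gave a residual degree of freedom (1 in all), so that the adult library was assumed to vary like the aged ones, and an infinite prior, so that all genes shared the variance trend. The choosing genes and Malat1 were in the fit and are not reported as calls. The interaction used sums of Nxph1 and other neuron nuclei with library as a block. Genes named were the 10 largest changes each way for age, the 5 largest each way for the interaction, and the 15 highest and 10 lowest in level. Those for age and interaction had 30 or more UMIs, both aged libraries on the same side of the adult one, and no unnamed gene models. From each list 2 to 4 members by p or by level were to be named with values. Further members named by count were taken after their values were seen. DESeq2 1.42.0, other gates, thinning, subtraction of free RNA, other scaling and filters were alternatives. Scripts were tested on simulated data. Python 3.11.15, scipy 1.17.1, pandas 2.3.3 and matplotlib 3.10.9 were used. Some genes of the lists are counted and not reported here by name.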

Additional observations from a re-analysis of the deposited data

Results flagged for a closer look

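The age difference of 10 named genes differed between Nxph1 nuclei and other neuron nuclei by the interaction test. The values are log2 interactions, and a positive value means that the aged to adult ratio was larger in Nxph1 nuclei. Values of 3.50 for Smagp, 2.99 for Sdc1, 2.84 for F13a1, 2.25 for Atf3 and 2.08 for Stmn4 were above 0. In free RNA Sdc1 was at 7.28, 15.1 and 18.5 CPM, F13a1 at 17.6, 18.4 and 26.3 and Stmn4 at 15.7, 19.9 and 19.4. Each of these was above its level in Nxph1 nuclei in every library, and the part of free RNA was not tested. Values of -4.73 for Hsd17b3, -4.71 for Prr15l, -3.90 for Mylk3, -3.04 for Ccbe1 and -2.90 for Kcnmb2 were below 0. Several rested on few nuclei. Of the 17 Smagp UMIs in aged replicate 2, 16 were in 1 nucleus, and of the 37 adult Prr15l UMIs 31 were. Sdc1 had 19 of its 24 UMIs in aged replicate 1 in 1 nucleus. Smagp also fell in other neuron nuclei, from 6.30 CPM to 1.10 and 1.504 CPM, while in Nxph1 nuclei it was at 2.05, 2.95 and 8.84 CPM. Mylk3, a myosin light chain kinase, was at 8.06, 1.07 and 0.520 CPM in Nxph1 nuclei and at 1.06, 1.69 and 1.35 CPM in other neuron nuclei. None of the 10 passed with the Kcnh5 and Vwc2l nuclei as the comparator or with the bias-adjusted edgeR test.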

How the results depend on the processing

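The comparisons rest on 1 adult library and 2 aged ones, whose Nxph1 nuclei held 7316621, 3733739 and 1922337 UMIs. No paired analysis was possible because the labels link no adult library to an aged one. The 1519 genes called for age became 227 under a rule of 8 UMIs from 3 genes, 594 with a gate ratio of 4, 914 with no Malat1 minimum and 769 with Malat1 at 1% or more. They became 929 without nuclei over 1% of other-cell markers, 117 after thinning to 2000 UMIs, 12 after free RNA was subtracted (1121 at an unadjusted p under 0.05) and 227 with DESeq2. Leaving out 1 aged library gave a direction and no test, and 1517 to 1519 calls kept theirs. Of the calls 31.8% were higher, against 17.9% with Malat1 at 1%, 18.5% with the ratio of 4, 21.4% after thinning and 0% after free RNA was subtracted. The 238 interaction calls became 44 with the ratio of 4, 16 after thinning, 29 after free RNA was subtracted, 30 with DESeq2, 0 with the bias-adjusted test, 0 with the Kcnh5 and Vwc2l nuclei as comparator and 657 without nuclei of 2 or more Atf3 UMIs. The bias-adjusted test and the Atf3 alternative were chosen after the data were seen. Without 1 aged library 236 to 238 kept their direction. The interaction of Smagp turned to -0.17 without nuclei over 1% of other-cell markers. The aged minus adult share of Nxph1 nuclei among kept nuclei, -0.0621 percentage points, became -2.67 with over 2000 genes and -0.876 without nuclei over 1% of other-cell markers, and ran from -0.350 to 0.226 without 1 aged library. The share among gated neuron nuclei ran from -8.37 to 0.136 in the same way. The cause of these moves was not tested.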
